A study of Homo sapiens with 2 samples.

Results

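The SLCO1 cluster is a row of organic anion transporter genes on the short arm of chromosome 12, described here by its 4C contacts with an engineered break site. Its members were the chromosome 12 probes that bear the gene name SLCO1C1, SLCO1B3, SLCO1B1 or SLCO1A2, a rule that uses name and position alone. This gave 10 of 61607 probes, windows of 50 kb laid along hg18, namely 1 probe of SLCO1C1 and 3 each of SLCO1B3, SLCO1B1 and SLCO1A2, between 20750001 and 21450000. Every member probe overlapped its gene, without the annotation saying exon or intron.

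The cells were U2OS, a human osteosarcoma line, carrying DRGFP (a reporter of double-strand break repair that holds an I-SceI cutting site), TRE-I-SceI and Tet-On, with no treatment recorded. Contacts of a fragment beside the I-SceI site were recovered by HindIII digestion, ligation, Csp6I digestion and inverse PCR, in 2 independent experiments that form a single group without a control. Values are reads per 1000000 reads of the library (RPM), and the libraries held 944456 reads in replicate 1 and 454091 in replicate 2, so that 1 read equals 1.06 and 2.20 RPM. These sizes follow from the RPM steps, and the reads recovered over all probes sum to slightly more, 947121 and 454478. Since a single group exists, the comparisons below are between regions within a replicate, conditions cannot be compared, and SDs rest on n = 2.

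The members belong to the OATP family of sodium-independent uptake carriers, which bring bile acids, bilirubin, hormone conjugates and many drugs into cells. SLCO1B1 and SLCO1B3 encode the hepatocyte carriers OATP1B1 and OATP1B3, SLCO1C1 encodes a thyroxine carrier of the blood-brain barrier, and SLCO1A2 encodes a broad carrier found in brain capillaries and in bile duct and kidney epithelium. The genes stand side by side as copies of an ancestral carrier gene. In 4C, the read number of a region reflects how often it is ligated to the chosen fragment, and it normally falls with distance along the same chromosome. Transcription was not measured, so the silence of these liver and brain genes in bone tumour cells is background and was not checked. Contact in many cells and frequent contact in few cells cannot be told apart.

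The promoter sequences show how the cluster's genes resemble each other and where the 4C enzymes could cut. They come from RefSeq (GRCh38.p14, another build than the probes, on which they were not placed), run from 250 bases before to 50 bases after a gene start, and were found for 3 of the 4 members. In the SLCO1B3 and SLCO1B1 promoters, capitals mark the longest run of bases that both share. SLCO1A2 had 2 promoter entries, and the printed one is that with a HindIII site, marked by capitals.
SLCO1B3 (chr12:20810455-20810754, plus strand): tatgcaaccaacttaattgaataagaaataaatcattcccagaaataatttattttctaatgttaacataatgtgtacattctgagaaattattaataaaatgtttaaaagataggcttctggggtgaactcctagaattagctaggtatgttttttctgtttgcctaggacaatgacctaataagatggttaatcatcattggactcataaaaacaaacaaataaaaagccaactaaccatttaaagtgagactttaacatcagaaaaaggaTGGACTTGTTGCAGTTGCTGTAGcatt
SLCO1B1 (chr12:21130944-21131243, plus strand): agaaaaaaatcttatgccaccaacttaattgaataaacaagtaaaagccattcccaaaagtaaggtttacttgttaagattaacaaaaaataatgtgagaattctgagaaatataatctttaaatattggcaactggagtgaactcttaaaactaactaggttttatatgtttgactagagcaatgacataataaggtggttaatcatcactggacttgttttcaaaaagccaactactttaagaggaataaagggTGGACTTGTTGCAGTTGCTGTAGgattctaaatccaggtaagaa
SLCO1A2 (chr12:21334868-21335167, minus strand): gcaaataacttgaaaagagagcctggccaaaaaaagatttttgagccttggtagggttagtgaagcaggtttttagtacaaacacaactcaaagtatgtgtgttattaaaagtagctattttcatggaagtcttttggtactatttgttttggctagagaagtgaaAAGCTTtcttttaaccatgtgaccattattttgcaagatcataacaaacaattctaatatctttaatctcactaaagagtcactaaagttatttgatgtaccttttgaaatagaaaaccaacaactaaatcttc

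The SLCO1B3 and SLCO1B1 promoters were identical at 65.0% of 340 aligned positions, and their longest shared run was 23 bases. Against the 2 SLCO1A2 promoters, identity was 47.5% to 53.6% and the longest shared run 8 to 10 bases. Reads from such related copies can be hard to place, and neither read length nor mapping filters were known here. The HindIII site AAGCTT occurred once in the printed SLCO1A2 promoter and in none of the other 3 promoters of the cluster, against 5.84% of 35116 promoters. The Csp6I site GTAC occurred in 29.8% of promoters. It occurred 3 times in the printed SLCO1A2 promoter and once in the unprinted one. The SLCO1B3 promoter held it once and the SLCO1B1 promoter not at all. The letters GTTAAT, read on both strands as an HNF1 half-site (HNF1 is a liver transcription factor), occurred once in the SLCO1B3 promoter and 2 times in that of SLCO1B1, against 6.88% of promoters with at least 1. It also occurred once in the SLCO1A2 promoter that is not printed, and not in the printed one. The cluster's promoters had a G and C content of 30.0% to 35.3%, and the shares over all promoters were not matched for it. These matches describe letters, not bound or cut sites.

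The cluster lay 7.03 Mb (SLCO1C1) to 7.68 Mb (the last SLCO1A2 probe) from 13.75 Mb, the centre of the 500 kb window with the strongest signal, towards the chromosome end. Reads were present at 8 of 10 member probes in replicate 1 and at 9 of 10 in replicate 2, or 85.0% ± 7.07 (SD, n = 2), with 95% Clopper-Pearson intervals of 44.4% to 97.5% and 55.5% to 99.7% that treat neighbouring probes as independent. Over all probes of the genome the shares were 8.06% and 8.63%. The same 8 member probes had reads in both replicates, where 2.48% of all probes did. Together the member probes held 0.261% of the reads of replicate 1 (95% interval 0.251% to 0.272%) and 0.0892% of those of replicate 2 (0.0807% to 0.0983%). PCR copies are not separate molecules, so these intervals hold counting error alone, and the share of the library differed between the replicates by more than counting error.

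**Figure D1:**
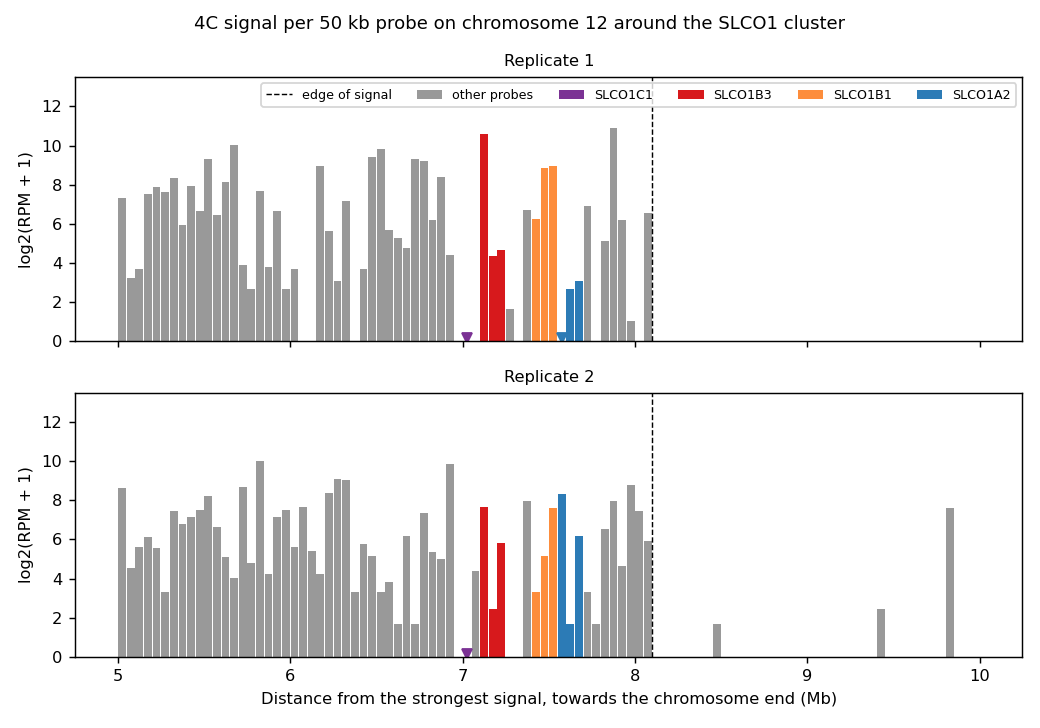
Signal of each 50 kb probe, as log2(RPM + 1), against distance from the strongest signal towards the chromosome end, in replicate 1 (top) and replicate 2 (bottom). Coloured bars are the SLCO1 members, grey bars other probes, triangles member probes without reads, and the dashed line the end of the signal 8.1 Mb out. Member probes rise and fall within the range of the grey bars beside them, and the SLCO1C1 position is empty in both panels.

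SLCO1C1, the thyroxine carrier gene, had 0 reads in both replicates at its single probe (20750001 to 20800000). A limit of 3 reads puts its level below 3.18 RPM in replicate 1 and 6.61 RPM in replicate 2. The probe before it, the last that bears the name of PDE3A (a cyclic nucleotide phosphodiesterase gene), was also empty in both. These 2 probes formed the longest stretch without reads in either library, 100 kb, among the 142 probes from 1 Mb out to the edge of the signal. The other probe that was empty in both lay in the same cluster, between SLCO1B3 and SLCO1B1 (21050001 to 21100000, with a clone-based name), so that all 3 such probes on this side fell within or next to the cluster. Towards the chromosome start, 11 of 142 probes at the same distances were empty in both. The empty stretch was chosen for description after its values were seen, and the number of HindIII sites per probe was not analysed here.

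SLCO1B3, the first of the liver carriers, held the highest member probe. That probe (20850001 to 20900000) had 1535 RPM in replicate 1 and 205 RPM in replicate 2, or 1450 and 93 reads. Both libraries were high there, replicate 1 by a factor of 7.5 over replicate 2. The next probe (20900001 to 20950000) had 19.1 and 4.40 RPM, and the last (20950001 to 21000000) had 24.4 and 55.1 RPM. In both replicates the first probe of SLCO1B3 was thus the highest of the gene. The middle probe was the lowest in both, but in replicate 1 only by 18 against 23 reads, too few to order them. The first probe alone made up 97.3% of the reads of SLCO1B3 in replicate 1 and 77.5% in replicate 2.

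SLCO1B1, the second liver carrier and the gene whose product takes up statins, had reads at all 3 probes in both replicates. Its first probe (21150001 to 21200000) had 75.2 RPM in replicate 1 and 8.81 RPM in replicate 2. Its second probe (21200001 to 21250000) had 453 and 35.2 RPM, and its last (21250001 to 21300000) 491 and 194 RPM. The order of the 3 probes was the same in both replicates, with the lowest on the side of SLCO1B3 and the highest on the side of SLCO1A2. In replicate 1 the second and last probes lay close together, at 428 and 464 reads. Each of them was higher in replicate 1, by 8.53, 12.9 and 2.54 times.

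SLCO1A2 had reads mainly in replicate 2. Its first probe (21300001 to 21350000) had 0 reads in replicate 1 and 144 reads, or 317 RPM, in replicate 2, where it was the highest of all member probes. Its second (21350001 to 21400000) had 5.29 and 2.20 RPM, which is 5 reads and 1 read. Its last (21400001 to 21450000) had 7.41 RPM in replicate 1 and 70.5 RPM in replicate 2. Replicate 1 therefore showed SLCO1A2 with 12 reads in all, and replicate 2 with 177.

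Averaged over its probes, SLCO1B3 stood at 526 and 88.1 RPM in replicates 1 and 2 (307 ± 310, SD, n = 2). SLCO1B1 stood at 340 and 79.3 RPM (210 ± 184), SLCO1A2 at 4.24 and 130 RPM (67.1 ± 88.9), and SLCO1C1 at 0 in both. The order by mean was SLCO1B3, SLCO1B1, SLCO1A2 and SLCO1C1, but in replicate 2 SLCO1A2 came first. Neighbours in this order differed by less than the larger of their SDs between replicates, so the genes with reads cannot be ranked from these data. SLCO1B3 stood above SLCO1B1 in both replicates, but only by 88.1 against 79.3 RPM in replicate 2. Only the place of SLCO1C1, last in both replicates, was shared, and it rests on 1 probe.

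A two-sided exact binomial test asked at which probes the libraries differed beyond counting error, with Benjamini-Hochberg adjustment over the 8750 probes with reads in either. It called 7 of the 9 member probes with reads, 4 higher in replicate 1 and 3 higher in replicate 2. Over all tested probes it called 49.2% (19.5% higher in replicate 1 and 29.7% in replicate 2), and from 5 Mb out to the edge, where probes hold more reads, 83.1% of 59. The members' share was therefore near that of their surroundings. The 2 members not called were the middle SLCO1B3 probe (adjusted p = 0.0640, exact binomial test) and the middle SLCO1A2 probe (adjusted p = 0.843, exact binomial test), which had 20 and 6 reads in the libraries together. Across the 10 member probes, Pearson's r between the replicates' log2(RPM + 1) was 0.416 and Spearman's rho 0.353, against 0.263 and 0.174 over the 62 probes from 5 Mb to the edge and 0.414 and 0.447 over the 142 probes from 1 Mb to the edge. These are descriptions of probes that share their libraries and fall with distance together.

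The cluster was next set against probes at like distance towards the chromosome start, where each member probe has a counterpart mirrored about 13.75 Mb. The counterparts lay between 6050001 and 6750000 and bore 7 gene names, among them CD9 (a tetraspanin), CHD4 (a nucleosome remodeller) and NCAPD2 (a condensin subunit). Reads were found at 5 and 6 of the 10 counterparts in replicates 1 and 2, against 8 and 9 of the members. The difference was 30.0 percentage points in each replicate. It was 21.4 and 14.3 points over the whole span, 50 in each with the centre of the top 1 Mb window, and 50 and 20 with single reads set to 0, higher at the cluster in each case. Both replicates had reads at 2 of 10 counterparts and at 8 of 10 members, and 7 counterparts had reads in 1 library alone, against 1 member. In the wider belt within 1 Mb of these distances, 59.3% and 63.0% of 54 start-side probes had reads, which is close to the share at the counterparts. With 2 experiments an exact two-sided sign-flip test cannot go below p = 0.5, and none was run.

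**Figure D2:**
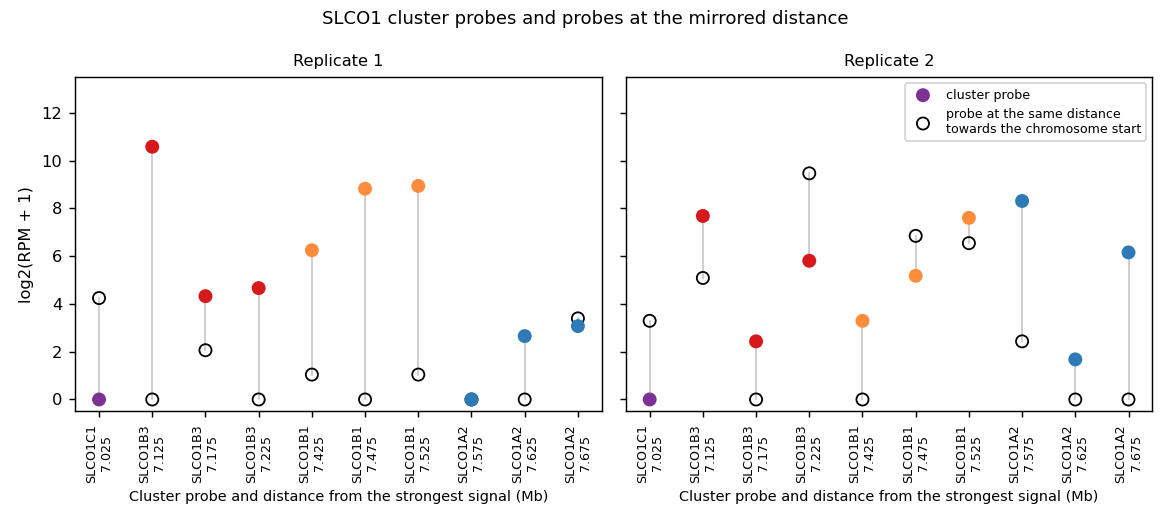
Signal of each SLCO1 member probe (filled, coloured by gene) and of the probe at the same distance towards the chromosome start (open), as log2(RPM + 1), in replicate 1 (left) and replicate 2 (right). In replicate 1 the SLCO1B3 and SLCO1B1 probes stand above their counterparts, while in replicate 2 filled and open points overlap in height and 4 of the open points are at 0.

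The mean level gave no direction that held in both replicates. In replicate 1 the members had 261 RPM per probe and their counterparts 3.28, a ratio of 79.5. In replicate 2 the members had 89.2 and the counterparts 96.2, a ratio of 0.927 that lay close to 1. On the log2 scale the ratio was 6.31 and -0.11, or 3.10 ± 4.54 (SD, n = 2), so its spread exceeded its mean. The sign in replicate 2 turned with the setting, at 0.13 over the whole span, 0.047, 0.46 and 1.42 with the other centres of the strongest signal, and 1.18 without the highest probe of each set. A single probe carried much of each mean. NCAPD2 (6500001 to 6550000) had 709 RPM in replicate 2 and 0 in replicate 1. It made up 73.7% of the counterparts' signal in replicate 2. The first SLCO1B3 probe made up 58.8% of the members' signal in replicate 1. Without the highest probe of each set, the log2 ratio in replicate 1 was 6.18. Against all 54 start-side probes within 1 Mb of the cluster's distances, whose mean was 104 and 105 RPM, the ratio was 2.51 in replicate 1 and 0.852 in replicate 2. The ratio of 79.5 thus rested on a low stretch of the start side in replicate 1.

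Measures that give less weight to single probes differed in the same direction in both replicates. The median member probe had 21.7 RPM in replicate 1 and 45.1 in replicate 2, against 0.529 and 6.61 at the counterparts. The mean of log2(RPM + 1) was 4.93 and 4.82 for the members against 1.18 and 3.37, a difference of 2.60 ± 1.63 (SD, n = 2). As percentiles, with ties shared, the first SLCO1B3 probe lay above all 41 start-side probes within 1 Mb of its distance in replicate 1 and at percentile 85.4 in replicate 2. The highest SLCO1B1 probe lay at percentiles 95.1 and 85.4, the middle SLCO1A2 probe at 70.7 and 39.02, and SLCO1C1 among the empty probes.

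Gene content differed between the sides as well. The 14 probes from SLCO1C1 to SLCO1A2 bore 5 gene names, with 2 probes outside any gene, while the 14 mirrored probes bore 11 names and none was without a gene. Of the names there, those with the highest signal by the lower replicate were SCNN1A (a subunit of the epithelial sodium channel) with 13.8 and 50.7 RPM, COPS7A (a COP9 signalosome subunit) with 18.0 and 8.81 RPM, and CD9 with 0.529 and 48.4 RPM over 2 probes. PLEKHG6 tied with CD9 by the lower replicate, at 0.529 and 57.3 RPM over 2 probes, and CD9 was listed by alphabetical order. The 0.529 RPM of each is 1 read in replicate 1. CHD4, with 3.18 RPM in replicate 1, and LPAR5, a lysophosphatidic acid receptor gene with 33.03 RPM in replicate 2, each had 0 in the other replicate. How far gene content moved with the reads was not tested.

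On its own side of the strongest signal the 10 member probes did not stand out by mean signal or by share of probes with reads. The 14 probes just before it, 7 of them named PDE3A, had reads in 85.7% and 92.9% of cases and 250 and 135 RPM per probe. The 8 probes from the cluster to the edge had reads in 75.0% and 100.0% of cases and 279 and 131 RPM. All 52 other probes from 5 Mb to the edge had reads in 84.6% and 94.2% of cases and 198 and 151 RPM. They include the probes of the cluster's span that bear no member name. Members were 4.62 and 4.23 percentage points below them. Over all 14 probes of the span, 71.4% and 78.6% had reads, at 194 and 83.2 RPM per probe. In both replicates these shares and means were lower than in each of those sets. The log2 ratio of mean signal between the members and the 52 other probes was 0.40 in replicate 1 and -0.76 in replicate 2, again without a shared direction. Measures that give less weight to single probes were lower for the members in both replicates. Medians were 21.7 and 45.1 RPM against 65.1 and 50.7, and the difference in mean log2(RPM + 1) was -0.39 and -0.87. That difference was -1.01 and -0.0090 against the 14 probes before the cluster, and 0.34 and -0.97 against the 8 after it.

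**Figure D3:**
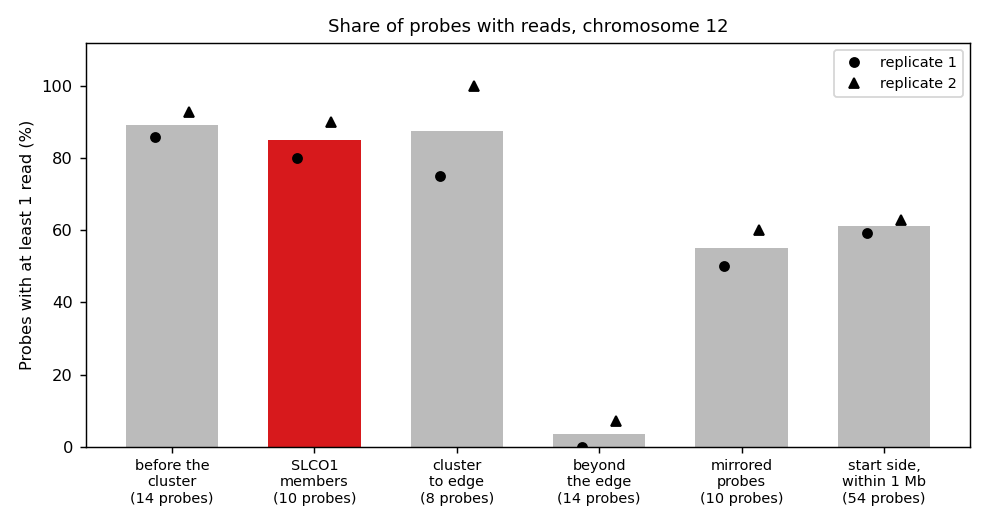
Share of probes with at least 1 read in sets of chromosome 12 probes, as the mean of the replicates (bars) with replicate 1 (circles) and replicate 2 (triangles). The SLCO1 members (red), at 80% and 90%, sit with the probes before and after them on the same side, above the mirrored and other start-side probes, and far above the 14 probes beyond the edge, at 0% and 7.14%.

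The edge followed 400 kb after the last SLCO1A2 probe. Between them, GYS2, the liver glycogen synthase gene, had 1911 and 247 RPM at its single probe (21600001 to 21650000), above every member probe in replicate 1. PYROXD1, an oxidoreductase gene, had 0 and 2.20 RPM, and GOLT1B, a Golgi transport gene, 33.9 and 90.3 RPM. LDHB, a lactate dehydrogenase gene, had 36.5 and 232 RPM over its 2 probes, and KCNJ8, a potassium channel gene at 21.85 Mb, 94.2 and 59.5 RPM. ABCC9, a sulfonylurea receptor gene, had no read at its 3 probes in either replicate. Of the 14 probes beyond KCNJ8, 0 had reads in replicate 1 and 1 had reads in replicate 2. For 14 probes not chosen by their values, 0 would allow a share of up to 21.4%. The first 5 were empty by the rule that placed the edge, so this limit does not hold here. The cluster therefore lay within the stretch of frequent contacts, and the edge itself was placed from these values, so its contrast with the cluster is a description.

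Distance described the cluster's level only roughly. Lines fitted to mean RPM in bins of 0.5 Mb from 1 Mb out to the cluster had log-log slopes of -1.12 and -1.44 in replicates 1 and 2, and lines over the longer range from 1 Mb to the chromosome start -1.44 and -1.78. The slopes cover unlike ranges, and the members' bins are part of the first fit. Against the end-side line, SLCO1B3 had 2.90 times the fitted level in replicate 1 and 0.721 in replicate 2, and SLCO1B1 1.96 and 0.689 times. SLCO1A2 had 0.0250 times the fitted level in replicate 1 and 1.16 in replicate 2, while SLCO1C1, with a fitted 186 and 126 RPM, had none. Over all members the level was 1.48 and 0.760 times that fitted, within the residual SD of the bins on the log2 scale, 0.94 and 0.57.

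**Figure D4:**
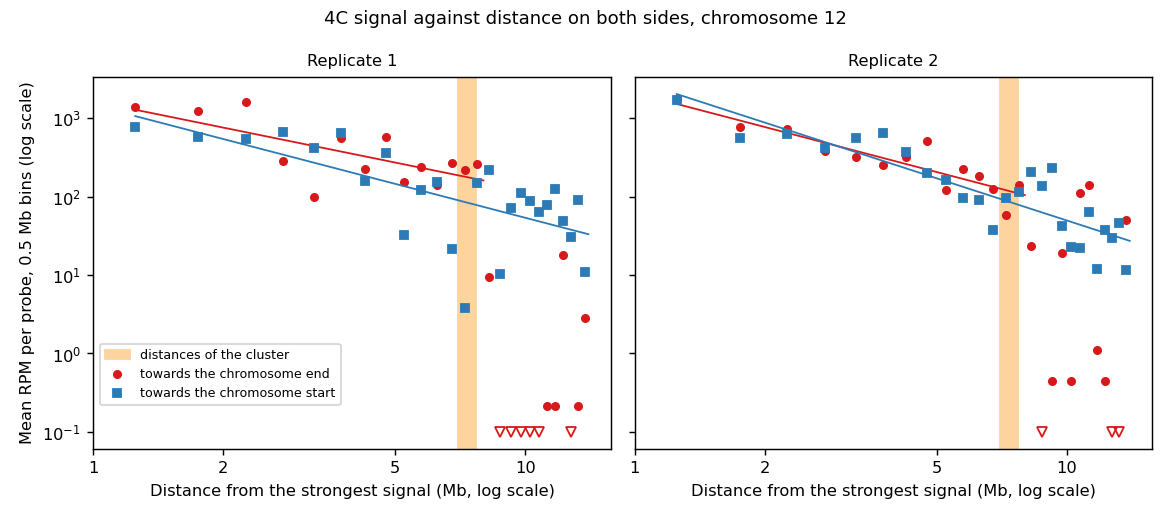
Mean RPM per probe in bins of 0.5 Mb against distance from the strongest signal, both on log scales, towards the chromosome end (red circles) and start (blue squares), with fitted lines; open triangles are bins without reads. In the shaded distances of the cluster the end-side bins lie somewhat above their line in replicate 1. In replicate 2 the end-side bin from 7 to 7.5 Mb, at 58.1 RPM, lies below its line and the bin after it above. In replicate 1 the start-side bin from 7 to 7.5 Mb falls to 3.81 RPM, far below its own line.

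Among 304 gene symbols of chromosome 12 with at least 2 probes, PDE3A had the levels most like the cluster in the 2 libraries, at 241 and 177 RPM per probe (Euclidean distance 1.14 in mean log2(RPM + 1)). ACSM4, FBXL14, A2ML1 and CD163L1 followed, at distances of 1.33 to 1.93. PDE3A adjoins the cluster, and the other 4 lie on the opposite side of the strongest signal. With 2 libraries this likeness says no more than that the levels are close.

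Relatives of the cluster's genes elsewhere in the genome had few contacts. Of 13 OATP names looked up, 11 were found among the probe names. The names SLCO1B7 and LST-3TM12 were not, so any probe of a further SLCO1 gene is not among the members. Of the other 7 OATP genes found in the table, 1 had reads in replicate 1 and 2 in replicate 2, at 1 and 2 of their 25 probes. This was 4.00% and 8.00% of their probes, near the 7.55% and 8.1% of all probes off chromosome 12. SLCO3A1, a widely expressed prostaglandin and thyroxine carrier gene on chromosome 15, had a single read in each replicate at 1 of its 8 probes, and SLCO4C1, a kidney carrier gene on chromosome 5, had 11.01 RPM at 1 probe in replicate 2. SLCO3A1 was thus the 1 of 7 with reads in both, where 5.23% of all gene names off chromosome 12 had them. SLCO2A1, SLCO2B1, SLCO4A1, SLCO5A1 and SLCO6A1 had none. Of 12 other hepatic transporter genes, among them ABCB11, the gene of the bile salt export pump, 0 had reads at any of 20 probes in either replicate, which allows a share of up to 15.0%. Of 8 thyroid hormone and blood-brain barrier transporter genes, SLC7A5, an amino acid carrier gene, had 6.61 RPM at 1 probe in replicate 2 and the others none. ABCB1 and ABCG2 stand in both this list and the hepatic one, so the lists are not separate. Over all 17794 gene names off chromosome 12, 13.7% and 14.0% had reads in the respective libraries, and the median level was 0, as in each of the 3 lists.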

How the data were processed

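The members, gene lists and tests were chosen with earlier results of these data known. The authors deposited 1 signal column per experiment over 50 kb probes with 1 gene name each, per the file headers. The submitters' processing notes name hg18 as the build, and neither the aligner nor the filters are stated. The deposited signal values were whole multiples of the RPM of 1 read in each library (100% within 0.1 read), so reads were recovered by division. The total, the mean and the mitochondrial probe were left out.

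Member probes were mirrored about the centre of the top 500 kb window. The edge is the last probe before the first 5 probes empty in both libraries. Medians, means and shares were computed in each replicate (Python 3.11.15, SciPy 1.17.1). The exact binomial test used library sizes and was tested on simulated data; it compares libraries, not conditions. Flanking, mirrored and most alike genes were named by position or level rules; clone-based names are not printed. Alternatives covered replicates, read minimum, member definition, centre, belt width, scale, pseudocount and threshold. Promoters were aligned with Biopython 1.88. The labels call the experiments independent without naming separate cultures, so SDs measure the spread between 2 libraries, which may be technical.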

Additional observations from a re-analysis of the deposited data

How the results depend on the processing

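The 46 recomputed values cover 5 results. Keeping only overlapping member probes repeats the main values and could not differ, because every member probe overlapped its gene. The share of member probes with reads was 60.0% when values under 10 reads were set to 0 and 75.0% over all probes of the span, and otherwise 80% to 90%, the range given by each replicate alone. The excess over the start side stayed above 0 in all 11 settings, from 17.9 to 50 percentage points. It was 17.9 over the whole span, 35.0 with single reads or values under 10 reads set to 0, 25.0, 50 and 20 with the centre of the top 200 kb window, the top 1 Mb window and the highest probe, and 30.6 and 23.9 within 0.5 Mb and 1 Mb of the member distances. Either replicate alone gave 30.0, and so did the setting that repeats the main values. The mean member signal ran from 89.2 to 261 RPM by replicate, was 33.4 RPM as a median and 4.87 as a mean of log2(RPM + 1), and 91.7 RPM without the highest probe, an alternative chosen after seeing the data. The log2 ratio to the start side was reversed, at -0.11, without replicate 1 and 6.31 without replicate 2; otherwise the mean of both ran from 0.55 to 4.13. In replicate 2 its sign was not fixed. It was -0.11 with single reads or values under 10 reads set to 0, and -0.23 within 1 Mb of the member distances. Within 0.5 Mb it was 0.0063. Over the whole span, with each other centre, without the highest probe, by medians and on the log scales it was above 0. The cause was not tested. Of the member probes, 6 to 8 differed between libraries under the alternatives, and the number tested and the share over all probes changed with the setting. With an adjusted p under 0.01, 6 of 9 tested members were called, against 45.4% of all tested probes. Among probes with at least 10 reads together, 8 of 8 members were called, against 95.8%. The count is therefore not a result about the members. No paired analysis was possible because the replicate numbers join no second group; members and counterparts were compared within each replicate instead. A level of 1 to 3 reads, as at the middle SLCO1A2 probe in replicate 2, is near the limit of detection.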
